A study of Mus musculus and Sus scrofa with 30 samples.

Results

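The glucocorticoid receptor gene Nr3c1 and 9 genes of its pathway were followed through fat cell formation in 2 cell systems. The other 9 were Hsd11b1, Fkbp5, Tsc22d3, Sgk1, Zbtb16, Errfi1, Anxa1, Glul and Cdkn1c. They were found by gene symbol, ignoring case, and each of the 10 matched 1 of 24843 genes listed for mouse and 1 of 34307 listed for pig. Of the 10, 9 passed a minimum mean of 10 normalized counts in each table, and Cdkn1c did not pass in either. Bulk RNA-seq covered 30 libraries. Of these, 15 came from 3T3-L1, a mouse embryonic fibroblast line with the capacity to form adipocytes, and 15 from porcine dedifferentiated fat (DFAT) cells derived from subcutaneous fat. Both systems had 5 groups of 3 libraries harvested on day 5: DMSO vehicle, dicoumarol (an anticoagulant that also inhibits a quinone reductase), magnolol (a plant lignan from magnolia bark), both together (the combination), and rosiglitazone (a drug that activates PPARγ, the nuclear receptor that drives adipogenesis). All 5 groups of a system, vehicle included, received the same induction medium with dexamethasone, so no group was without glucocorticoid. Whether dexamethasone was still in the medium at harvest is not stated. For 3T3-L1 cells the medium held 75 nM dexamethasone, 37.5 µM IBMX (a phosphodiesterase inhibitor), 0.75 µg/mL insulin and 10% serum. For DFAT cells it held 20 µM biotin, 10 µM pantothenate, 2% serum, dexamethasone at 0.5 µM and IBMX at 12.5 µM, and insulin is not named for it. The sources used here do not give the doses of the compounds. 3T3-L1 is a single established line, how many pigs the DFAT cells came from is not given, and the labels do not say whether the 3 libraries of a group came from separate cultures. The p-values therefore measure the spread between these libraries, which may be technical.

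The glucocorticoid receptor waits in the cytoplasm in a complex with Hsp90 chaperones. When a glucocorticoid binds, the receptor enters the nucleus, where it binds palindromic DNA elements or other transcription factors and raises or lowers its target genes. Dexamethasone, a synthetic glucocorticoid, is a standard part of adipogenic media because receptor activity early in the programme induces factors that lead to PPARγ. Several targets feed back on the pathway: the protein made from Fkbp5 lowers the receptor's affinity for hormone, and the enzyme made from Hsd11b1 regenerates active glucocorticoid from its inert form inside the cell.

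Depth, estimated from the steps between low values, ran from 22.8 to 30.7 M reads in 3T3-L1 libraries and from 44.8 to 70.5 M in DFAT libraries. Values are normalized counts, that is gene counts that the authors divided by a DESeq2 size factor for each library, with the 2 species normalized separately, so levels are not compared between species. Fold changes are differences of log2(normalized count + 1) from limma, a scale on which low genes change by less than their true fold, and a gene was called when its adjusted p was under 0.05 over the 15723 mouse or 14819 pig genes tested. The summed adipocyte markers ranged from 51717 to 69027 in the vehicle libraries of 3T3-L1 cells and from 73988 to 106171 with dicoumarol. They reached 102179 to 144625 with magnolol, 126566 to 195898 with both compounds and 338532 to 581034 with rosiglitazone. In DFAT cells the same sums were 18715 to 21607, 24520 to 26296, 38466 to 46699, 63243 to 70496 and 81512 to 88490. These sums are mostly Lpl and Fabp4 in 3T3-L1 cells (mean normalized counts of 92380 and 45799). In DFAT cells they are mostly LPL and CD36 (26273 and 9179). They say little about the other adipocyte markers. No adipocyte marker was listed at 0 throughout a group. In 3T3-L1 cells 0, 6, 9 and 9 of 9 tested markers were called higher in the order of the treatments, and in DFAT cells 6, 8, 10 and 9 of 10. Among 8 preadipocyte or fibroblast markers, 0, 0, 3 and 8 were called lower in 3T3-L1 cells, where their sum was 239852 to 264783 with vehicle, 204667 to 240302 with dicoumarol, 196840 to 236029 with magnolol, 179614 to 212157 with the combination and 139436 to 181293 with rosiglitazone. In DFAT cells 5 of them were tested, and 2 were called lower with each treatment. Called higher were 1 with dicoumarol and 2 each with magnolol and with the combination, and 0 with rosiglitazone. Their sum was 1591510 to 1743790 with vehicle, 2224970 to 2322880 with dicoumarol, 2536480 to 2905010 with magnolol and 2525760 to 3001800 with the combination, all above vehicle, and 1237750 to 1376600 with rosiglitazone, below it. This sum is mostly COL1A1 and COL3A1, with mean normalized counts of 1440860 and 622651, so it says little about the other markers. The 3T3-L1 sum has the same limit, being mostly Col1a1 and Col3a1 (means of 81384 and 83867). Macrophage, endothelial and skeletal muscle markers were low, with sums of at most 269, 20.5 and 115 in 3T3-L1 libraries and 1036 (mostly CD14), 239 (mostly PECAM1) and 303 in DFAT libraries. KDR was listed at 0 in every DFAT library, and PTPRC and MYOD1 were at most at 0.98 and 2.01 there. Of these markers, 1 of 3 macrophage markers tested was called lower with rosiglitazone in 3T3-L1 cells, and both muscle markers tested were called higher with the combination in DFAT cells. In bulk samples, fewer cells of a type and less RNA per cell cannot be told apart. Rosiglitazone replicates 1 and 3 of 3T3-L1 cells stood apart, with 14.3% and 11.6% of their normalized counts in mitochondrial genes, against 7.66% in rosiglitazone replicate 2 and 5.22% to 7.72% in the other 12 libraries. Their adipocyte marker sums were 581034 and 416522, against 338532 in replicate 2. The part of these marker and library differences in the results below was not tested.

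The DNA element that the receptor binds was looked for in the RefSeq promoter windows of GRCm38.p6, which run from 250 bases before to 50 bases after each listed start. Windows were found for 7 of the 10 genes, 15 windows in all, and not for Nr3c1, Zbtb16 and Cdkn1c. The full palindrome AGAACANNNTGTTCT, searched on both strands, occurred in 3 of 32851 windows (0.00913%), and 1 of these is 1 of the 6 windows listed for Sgk1, which encodes the serum- and glucocorticoid-regulated kinase. The other 5 Sgk1 windows, at other starts, do not hold it. The window is shown because it is the only one of the 15 with the full element. No pig promoter was searched, so it does not bear on the DFAT values. It lies on mouse chr10:21993661-21993755 (plus strand, GRCm38.p6), 95 bases with the element in capitals, 189 to 175 bases before the start:
Sgk1 promoter: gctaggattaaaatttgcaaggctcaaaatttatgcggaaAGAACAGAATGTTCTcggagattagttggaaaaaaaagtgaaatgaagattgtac
A single arm of it, AGAACA or TGTTCT, which the full palindrome also holds, was found in 4 of the 15 windows, 3 of Sgk1 and 1 of Tsc22d3, against 19.0% of all windows. A match describes the letters only and is not a measured binding site, and elements outside these windows were not searched.

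Across the pathway, the receptor gene itself and Fkbp5 were called in no comparison with vehicle, in either system, while single targets moved by up to about 4-fold. With the replicate number as a block, which pairs the 3T3-L1 libraries, Nr3c1 was called lower with rosiglitazone there (limma adjusted p 0.0147). In 3T3-L1 cells 7 of the 8 calls came with rosiglitazone, where 40.1% of all genes were called, against 5.22% with the combination. Hsd11b1, Zbtb16 and Glul rose with rosiglitazone, and Errfi1, Anxa1, Tsc22d3 and Sgk1 fell. With the block the magnolol, combination and rosiglitazone comparisons had 3, 5 and 8 calls there, against 4.96%, 13.5% and 49.8% of all genes. In DFAT cells the calls were spread over all 4 treatments and were all lower: SGK1 with each treatment, ERRFI1 with dicoumarol and the combination, HSD11B1 with the combination and rosiglitazone, and ANXA1 with the combination. Of all DFAT genes 1.03%, 1.27%, 4.06% and 5.02% were called lower with dicoumarol, magnolol, the combination and rosiglitazone.

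**Figure D1:**
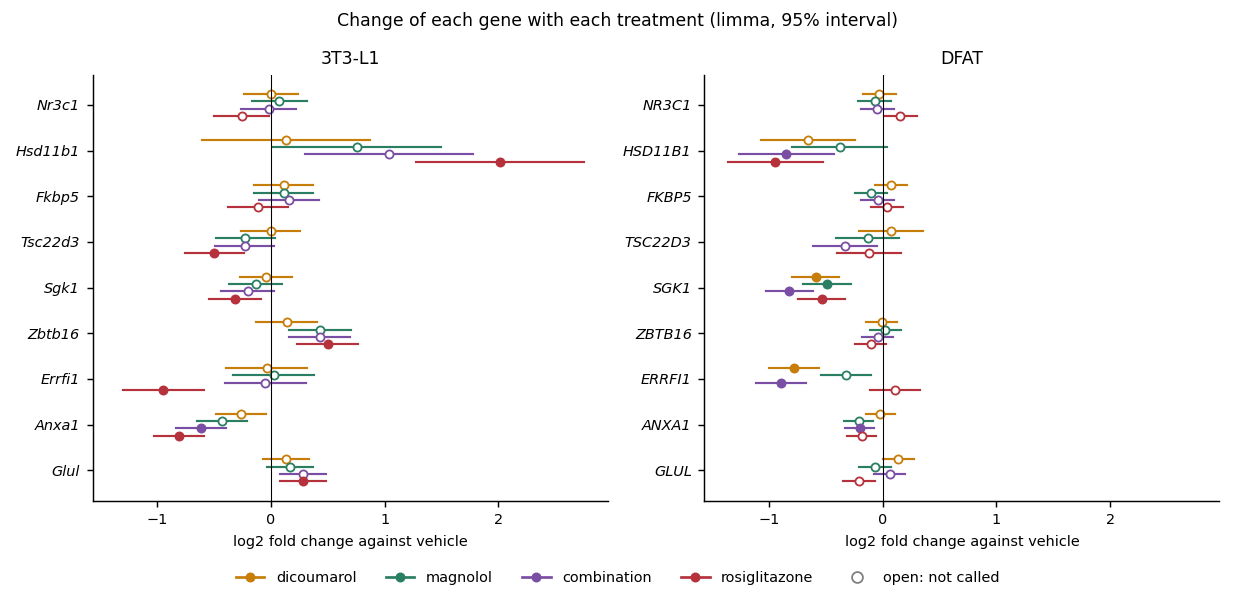
Log2 fold changes of the 9 tested genes against vehicle in 3T3-L1 (left) and DFAT cells (right), in log2(normalized count + 1) units, with 95% intervals from limma without the replicate block (3 libraries per group). Filled points are called at an adjusted p under 0.05 and open points are not: the filled points of 3T3-L1 cells are 7 with rosiglitazone and 1 with the combination (Anxa1), and all filled points of DFAT cells lie below 0. Of all 3T3-L1 genes 40.1% were called with rosiglitazone and 5.22% with the combination.

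The receptor gene Nr3c1 was called with no treatment in 3T3-L1 cells, and rosiglitazone came nearest. Its normalized counts were 3624, 4559 and 3696.5 with vehicle, 3726, 3853 and 4245 with dicoumarol and 3714, 4217 and 4546 with magnolol. With the combination they were 3656, 3891 and 4108, and with rosiglitazone 2837, 3584 and 3509.7. All 3 rosiglitazone libraries lay below the 3 vehicle libraries, and the other 3 treatments overlapped with vehicle. The rosiglitazone log2 fold change of −0.26 (SE 0.11) missed the threshold, with a limma adjusted p of 0.0806, and was called with the replicate number as a block (limma adjusted p 0.0147) and after quantile normalization (0.0385). The other 3 log2 fold changes were 0.00 (95% interval −0.24 to 0.24), 0.07 (−0.17 to 0.31) and −0.02 (−0.26 to 0.22). In DFAT cells NR3C1 stood at 8515, 7602 and 9055 with vehicle, 8227, 7931 and 8417 with dicoumarol and 7879, 7503 and 8549 with magnolol, while the combination libraries had 8142, 7664 and 8471 and the rosiglitazone libraries 9021, 9709 and 9245. All 4 treated groups overlapped with vehicle, with log2 fold changes between −0.07 and 0.16 and limma adjusted p of at least 0.188. Rosiglitazone exceeded the combination by 0.21 without overlap of the 2 groups (limma adjusted p 0.0484). That call was lost without combination replicate 1 or 2 or any 1 of the 3 rosiglitazone libraries (adjusted p 0.0503 to 0.168), without a filter (0.0869) or a variance trend (0.0825), and with only the compared groups fitted (0.108).

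Hsd11b1 encodes the reductase that turns inert cortisone or its rodent counterpart into active hormone, and it had the widest range of the 9 tested genes in 3T3-L1 cells. The deposited position of the mouse gene is chromosome 1, 192903942 to 192946383, on the minus strand, on a build that could not be settled. Its normalized counts were 99.8, 61.6 and 74.4 with vehicle, 125, 61.9 and 78.01 with dicoumarol and 151, 93.9 and 158 with magnolol. They were 198, 101 and 203 with the combination and 433, 186 and 387 with rosiglitazone. Every rosiglitazone and every combination library lay above all vehicle libraries, although only just for combination replicate 2, whereas magnolol replicate 2 lay below the highest vehicle library. Hsd11b1 rose 4.04-fold with rosiglitazone (log2 fold change 2.02, SE 0.35, limma adjusted p 0.000291). The 2 libraries with a high mitochondrial share had 433 and 387, and replicate 2 had 186. With replicate 2 as the lone rosiglitazone library the log2 fold change was 1.26 and was not called (limma adjusted p 0.0624), and without replicate 2 it was 2.39 (6.52e-05). The differences with magnolol (0.76, limma adjusted p 0.475) and the combination (1.04, limma adjusted p 0.108) were not called, and dicoumarol gave 0.13. With the replicate block both were called (limma adjusted p 0.0113 and 0.000428). Without combination replicate 2 the combination gave 1.37 and was called as well (limma adjusted p 0.0401).

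In DFAT cells HSD11B1 had low levels and lay below vehicle with every treatment. Its normalized counts were 61.7, 80.3 and 71.3 with vehicle, 44.8, 46.2 and 42.3 with dicoumarol and 60.2, 51.2 and 51.6 with magnolol. They were 33.3, 45.8 and 38.2 with the combination and 34.6, 29.96 and 45.8 with rosiglitazone. No treated library reached the lowest vehicle library. HSD11B1 fell with the combination (log2 fold change −0.85, SE 0.20, limma adjusted p 0.00958) and with rosiglitazone (−0.95, limma adjusted p 0.00368). The combination call was lost without combination replicate 1 (limma adjusted p 0.0507). Dicoumarol (−0.66) and magnolol (−0.38) were not called, with limma adjusted p of 0.125 and 0.353. The position given for the pig gene is chromosome 9, 133231451 to 133278396, minus strand.

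Fkbp5 encodes the co-chaperone that holds the receptor in a state of low hormone affinity, and it is a widely used readout of receptor activity. Normalized counts in 3T3-L1 cells were 26301, 31207.5 and 28452 with vehicle, 27738, 32881 and 32270.2 with dicoumarol and 28411, 32504 and 31949 with magnolol. With the combination they were 30479.8, 34696 and 30894, and with rosiglitazone 22315, 31239 and 26344. Every treated group overlapped with vehicle, and replicate 1 was the lowest library of each of the 5 groups. The log2 fold changes were 0.11, 0.11, 0.16 and −0.12 (SE 0.12), with 95% intervals that together run from −0.38 to 0.42. Rosiglitazone was −0.28 against the combination, not called (limma adjusted p 0.125) except with the replicate block (0.0137) or without rosiglitazone replicate 2 (0.0244). In DFAT cells FKBP5 had 53765, 49332.5 and 53802 normalized counts with vehicle, 56172, 54459 and 53843 with dicoumarol and 47099, 49313 and 49183 with magnolol, while the combination libraries had 50584, 49628 and 51601.5 and the rosiglitazone libraries 50991, 58942.5 and 51038. The dicoumarol libraries lay just above and the magnolol libraries just below those of vehicle. Log2 fold changes there were 0.07, −0.11, −0.05 and 0.03 (SE 0.07). The smallest limma adjusted p was 0.458.

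Tsc22d3 encodes GILZ, a leucine zipper protein that carries part of the anti-inflammatory action of glucocorticoids. In 3T3-L1 cells its normalized counts were 19753, 22238 and 22948 with vehicle, 17763, 24749.9 and 22838 with dicoumarol and 17192, 19509 and 18824 with magnolol. The combination libraries had 16122.5, 20506 and 18811.5 and the rosiglitazone libraries 14706, 15839.5 and 15385. All magnolol and rosiglitazone libraries lay below the vehicle libraries, and replicate 1 was again the lowest of each group. Tsc22d3 fell with rosiglitazone (log2 fold change −0.50, SE 0.12, limma adjusted p 0.00417). The differences of −0.22 with magnolol and −0.23 with the combination were not called (limma adjusted p 0.588 and 0.361). The pig gene listed under this symbol spans only 3051 bases, against 61132 in the mouse table, and had 182, 144 and 189 normalized counts with vehicle and 126, 148 and 134 with the combination. Its log2 fold changes of 0.07, −0.13, −0.33 and −0.12 were not called, the smallest limma adjusted p being 0.134 with the combination. Without vehicle replicate 2 that value was 0.0493. A protein-coding gene without a symbol, ENSSSCG00000030241, lies 50.3 kb away on the same strand (chromosome X, 88171334 to 88179750) and had 12665 to 20302 normalized counts. What this gene is was not determined, it is named here after its values were seen, and its log2 fold changes of 0.18, −0.11, −0.15 and −0.24 were not called either. Whether the pig TSC22D3 values cover the whole locus was not tested.

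Sgk1, the kinase whose promoter is shown above, acts downstream of insulin signalling on ion channels and FOXO factors. In DFAT cells SGK1 (chromosome 1, 29745114 to 29753602, plus strand as deposited) had 3613, 4303 and 3471 normalized counts with vehicle, 2488, 2737 and 2322 with dicoumarol and 2547, 3016 and 2522 with magnolol. It had 2078, 2296 and 2045 with the combination and 2543, 2941 and 2351 with rosiglitazone. None of the 12 treated libraries reached the lowest vehicle library. SGK1 fell with all 4 treatments. The combination gave the largest log2 fold change (−0.82, SE 0.10, limma adjusted p 2.22e-05), then dicoumarol (−0.59, 0.00290), rosiglitazone (−0.54, 0.00123) and magnolol (−0.49, 0.00587). These 4 calls were kept under all alternatives run, including those without 1 library. The combination lay below magnolol by −0.33 without overlap, which was not called (limma adjusted p 0.237) unless the replicate number was a block (0.000875). In 3T3-L1 cells Sgk1 counted 3911, 3872 and 3197 with vehicle, 3860.3, 3525 and 3243 with dicoumarol and 3645, 3379 and 2975 with magnolol, while the combination libraries had 3557, 2995 and 2971 and the rosiglitazone libraries 3165, 2826 and 2801. Rosiglitazone replicate 1 lay just below the lowest vehicle library, so these groups did not overlap, and the others did. Sgk1 fell with rosiglitazone (log2 fold change −0.32, SE 0.11, limma adjusted p 0.0296), and the combination gave −0.20 (limma adjusted p 0.371; 0.0493 with the block). The rosiglitazone call did not hold without vehicle replicate 1 (0.104) or 2 (0.101) or without rosiglitazone replicate 2 (0.0699) or 3 (0.0883), and with only the compared groups fitted (0.0718).

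Zbtb16 encodes PLZF, a zinc finger transcription factor that glucocorticoids strongly induce in many cells. Its normalized counts in 3T3-L1 cells were 1719, 1516 and 1659.9 with vehicle, 2022, 1538 and 1861 with dicoumarol and 2234, 2049 and 2317.5 with magnolol. They were 2551, 2126 and 1949.6 with the combination and 2144, 2740.3 and 2086 with rosiglitazone. Every magnolol, combination and rosiglitazone library lay above every vehicle library. Zbtb16 rose with rosiglitazone (log2 fold change 0.50, SE 0.13, limma adjusted p 0.00517). Magnolol (0.43) and the combination (0.43) gave differences nearly as large that were not called (limma adjusted p 0.152 and 0.0631), but were with the replicate block (0.0437 and 0.0212). ZBTB16 in DFAT cells had 10270.4, 9967 and 9406 normalized counts with vehicle, 9832, 9748 and 9842 with dicoumarol and 10155, 10378 and 9587 with magnolol, while the combination libraries had 10080.4, 9888 and 8798 and the rosiglitazone libraries 9591, 9536 and 8442. These groups all overlapped with vehicle, and the log2 fold changes lay between −0.11 and 0.02 (SE 0.07; limma adjusted p at least 0.390).

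Errfi1 encodes MIG6, a feedback inhibitor of the EGF receptor. In 3T3-L1 cells (chromosome 4, 150938376 to 150953349, plus strand as deposited) normalized counts were 5825, 8001 and 7488 with vehicle, 5605, 7265 and 7941 with dicoumarol and 6134, 7239 and 8275 with magnolol. They were 6121, 7173 and 7164 with the combination and 2882, 4389 and 3841 with rosiglitazone. The 3 rosiglitazone libraries lay below the other 12, and those 12 overlapped across their groups. Errfi1 fell with rosiglitazone (log2 fold change −0.95, SE 0.17, limma adjusted p 0.000349), while the other 3 treatments gave −0.04, 0.02 and −0.05 (95% intervals −0.39 to 0.32, −0.33 to 0.38 and −0.41 to 0.31). Rosiglitazone was also below the combination, by −0.90 (limma adjusted p 0.00319), a comparison added after the values were seen. In DFAT cells (chromosome 6, 68669153 to 68682623, minus strand as deposited) ERRFI1 stood at 2137, 1813 and 1975.5 with vehicle, 1242, 1009.7 and 1207 with dicoumarol and 1671, 1375 and 1704 with magnolol. It stood at 1170.2, 1058 and 963 with the combination and 2329.9, 1951 and 2099 with rosiglitazone. Here the dicoumarol, magnolol and combination libraries all lay below vehicle, and the rosiglitazone libraries overlapped with it. ERRFI1 fell with dicoumarol (−0.78, SE 0.10, limma adjusted p 0.000347) and the combination (−0.89, limma adjusted p 1.52e-05), and both calls were kept under all alternatives run. The values with magnolol (−0.32, limma adjusted p 0.1002) and rosiglitazone (0.11, 95% interval −0.11 to 0.33) were not called. The combination was lower than magnolol alone by −0.57 (limma adjusted p 0.0130; 0.000203 with the block) and differed from dicoumarol alone by −0.11 (95% interval −0.33 to 0.10; limma adjusted p 0.710). The difference from magnolol was not called without magnolol replicate 1 (0.0928), magnolol replicate 3 (0.0728) or combination replicate 3 (0.0731), without a filter (0.0604) or a variance trend (0.0663), and with only the compared groups fitted (0.0736). Rosiglitazone was above the combination by 1.00 in DFAT cells (limma adjusted p 3.79e-06), opposite in sign to 3T3-L1 cells. Whether the 2 systems differ was not tested.

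Anxa1 encodes an annexin through which glucocorticoids restrain inflammation. In 3T3-L1 cells (chromosome 19, 20350792 to 20368308, minus strand as deposited) its normalized counts were 19664, 23023 and 20805 with vehicle, 16550.1, 19143.5 and 17216 with dicoumarol and 14668, 16919 and 15540.2 with magnolol. They were 11934, 14761 and 14934 with the combination and 11695, 12164 and 12359 with rosiglitazone. All 4 treated groups lay below vehicle without overlap, and the group means fell in the order vehicle, dicoumarol, magnolol, combination, rosiglitazone. Neighbouring groups in that order overlapped, apart from vehicle and dicoumarol. Anxa1 fell with the combination (log2 fold change −0.61, SE 0.10, limma adjusted p 0.00241) and rosiglitazone (−0.81, limma adjusted p 2.01e-05), and both calls were kept under all alternatives run. Magnolol gave −0.43 (limma adjusted p 0.0554; 0.00184 with the replicate block) and dicoumarol −0.26 (limma adjusted p 1.00). With the block the combination was also below dicoumarol alone (−0.35, 0.0124; without it 0.246). In DFAT cells ANXA1 had 34649.7, 32424 and 38088 normalized counts with vehicle, 34039, 33987 and 35392 with dicoumarol and 30119.5, 30397 and 30076 with magnolol, while the combination libraries had 30785, 30224 and 30115 and the rosiglitazone libraries 29606.5, 31087 and 31670.2. The magnolol, combination and rosiglitazone libraries lay below the vehicle libraries, and the vehicle libraries were spread more widely than these 3 groups. ANXA1 fell with the combination (log2 fold change −0.20, SE 0.06, limma adjusted p 0.0412). Nearly the same values with magnolol (−0.21) and rosiglitazone (−0.18) missed the threshold (limma adjusted p 0.0602 and 0.0636). The combination call did not hold without vehicle replicate 1 (0.0926) or 3 (0.175) or without any 1 of the 3 combination libraries (0.0868, 0.0999 and 0.102), without a filter (0.0591) or a variance trend (0.0502), and with only the compared groups fitted (0.145). Without vehicle replicate 2, magnolol (0.0246) and rosiglitazone (0.0254) were called.

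Glul encodes glutamine synthetase, a classic glucocorticoid-induced enzyme of muscle and fat. Its normalized counts in 3T3-L1 cells were 20603, 20878 and 21653 with vehicle, 21860.5, 22385 and 24949 with dicoumarol and 23286, 23003 and 24683 with magnolol. With the combination they were 25763, 23953 and 27279.9, and with rosiglitazone 24096, 24140.5 and 28838. Each of the 12 treated libraries was above the highest vehicle library. Glul rose with rosiglitazone (log2 fold change 0.28, SE 0.10, limma adjusted p 0.0269). The same size with the combination (0.28) was not called (limma adjusted p 0.108; 0.0124 with the block and 0.0449 after quantile normalization). The rosiglitazone call did not hold without vehicle replicate 1 (0.0718) or 2 (0.0616) or without rosiglitazone replicate 3 (0.138), with no filter (0.0550) and with only the compared groups fitted (0.139). GLUL in DFAT cells had 28154, 27770.5 and 28790.3 with vehicle, 31336, 30953 and 30861 with dicoumarol and 26049, 28913 and 25980.1 with magnolol, while the combination libraries had 29455, 29725 and 29097 and the rosiglitazone libraries 23872, 27091 and 22525. The dicoumarol and combination libraries lay above and the rosiglitazone libraries below those of vehicle. None of the 4 differences was called, and rosiglitazone came nearest (−0.21, limma adjusted p 0.0524; 0.00414 without rosiglitazone replicate 2 and 0.0452 with a minimum mean of 50). Rosiglitazone was below the combination by −0.27 (limma adjusted p 0.00911), which was lost without rosiglitazone replicate 3 (0.0566) and with only the compared groups fitted (0.0800).

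Cdkn1c, which encodes a cyclin-dependent kinase inhibitor, was too low to test. In 3T3-L1 cells it was listed at 0 in 7 of 15 libraries and at most at 2.93. In DFAT cells CDKN1C had 11.8, 9.34 and 13.2 normalized counts with vehicle, 7.80, 17.1 and 7.87 with dicoumarol and 8.03, 9.14 and 6.31 with magnolol, while the combination libraries had 8.83, 9.37 and 3.82 and the rosiglitazone libraries 3.84, 5.14 and 1.02. The magnolol and rosiglitazone libraries lay below those of vehicle.

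**Figure D2:**
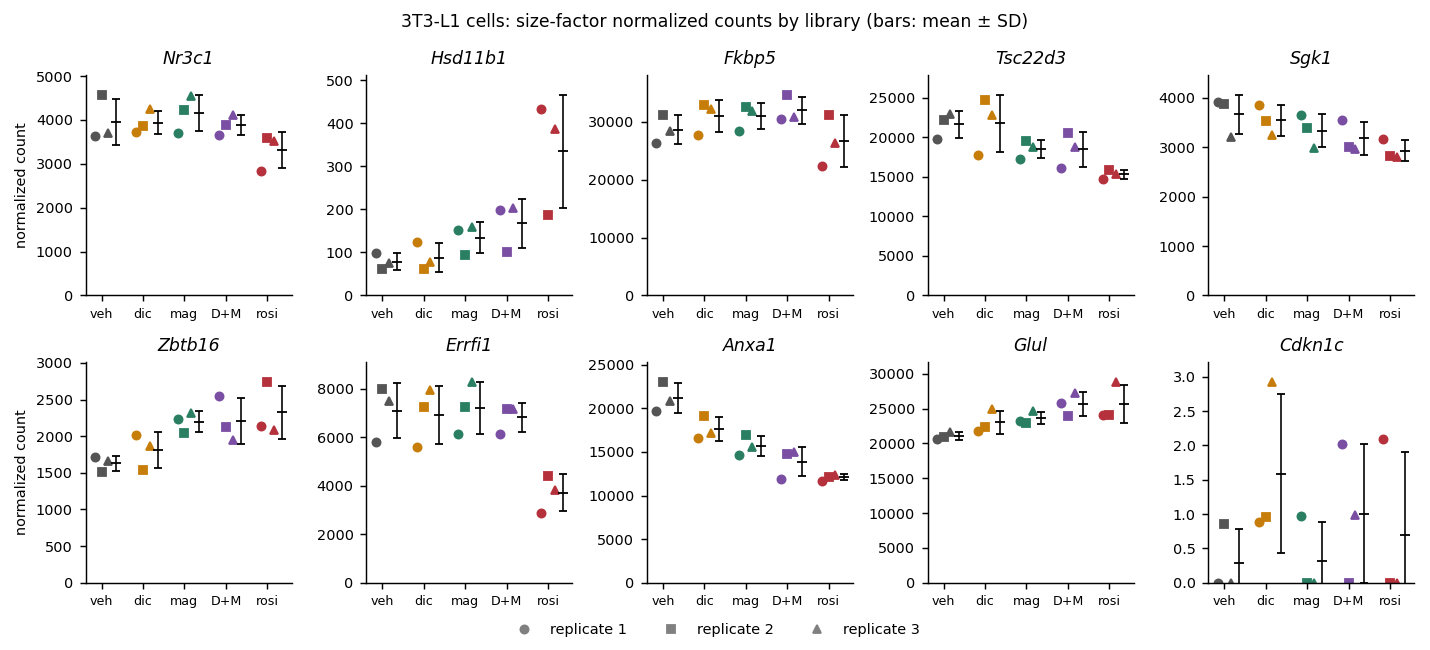
Normalized counts of the 10 genes in each 3T3-L1 library, by group (veh, vehicle; dic, dicoumarol; mag, magnolol; D+M, combination; rosi, rosiglitazone). Symbols give the replicate number, black bars the mean ± SD of 3 libraries (not drawn below 0), and each vertical axis starts at 0: Hsd11b1 is highest with rosiglitazone (186 to 433), and Errfi1 lowest (2882 to 4389).

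**Figure D3:**
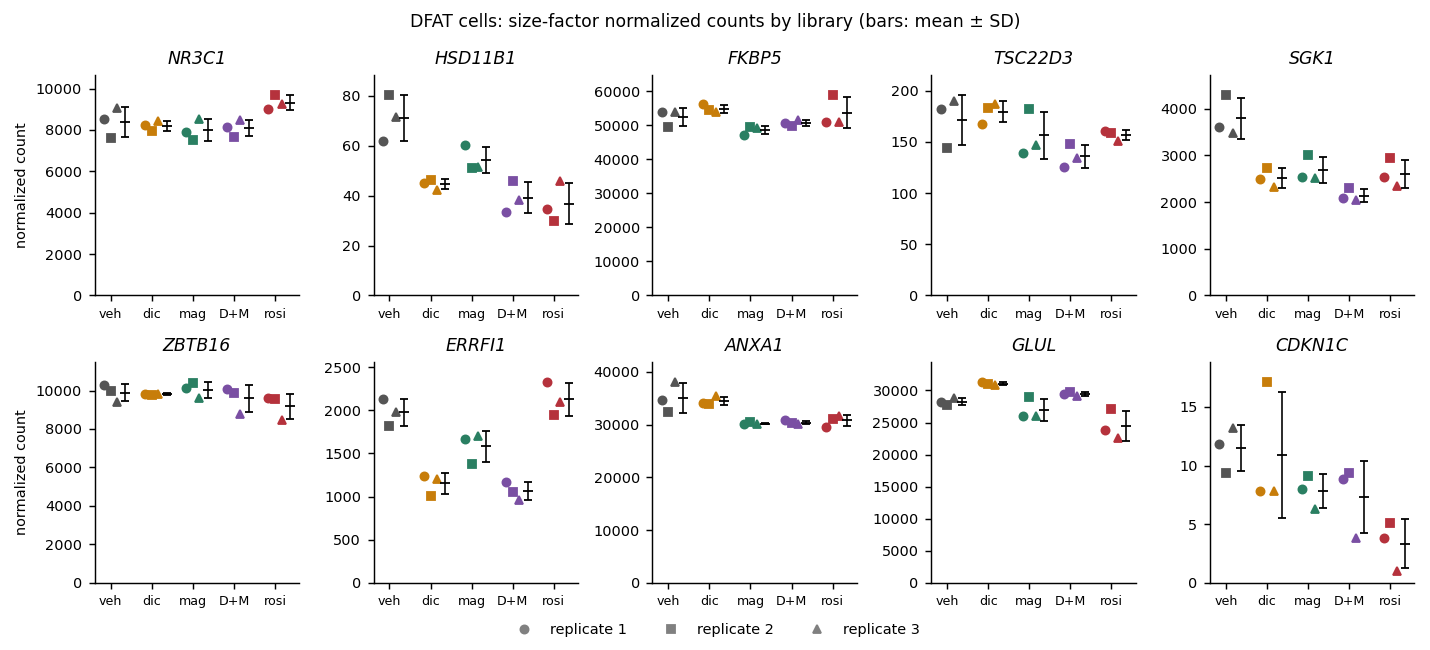
Normalized counts of the 10 genes in each DFAT library, with groups, symbols and bars as for the 3T3-L1 libraries. SGK1 is below vehicle in all 4 treated groups, and ERRFI1 is lowest with dicoumarol and the combination and overlaps with vehicle with rosiglitazone.

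The comparisons with vehicle asked what each compound changed, and the counts over the 9 tested genes are read against all genes. In 3T3-L1 cells dicoumarol gave 0 calls by limma among the 9 genes (1 at an unadjusted p under 0.05, Anxa1) and 0 among all genes (0%, with 393 at an unadjusted p under 0.05). Magnolol also gave 0 of 9 (3 at an unadjusted p under 0.05), against 1.23% of all genes. With the combination 1 of 9 was called, Anxa1, against 5.22%, and with rosiglitazone 7 of 9, 3 higher and 4 lower, against 40.1%. With the replicate number as a block, which pairs the 3T3-L1 libraries, the magnolol, combination and rosiglitazone counts were 3, 5 and 8, and the block called 4.96%, 13.5% and 49.8% of all genes. Without rosiglitazone replicates 1 and 3, a fit added after the values were seen in which the lone library is assumed to vary like the other groups, 3 genes were called with rosiglitazone, against 18.3% of all genes. They were Anxa1 (log2 fold change −0.80, limma adjusted p 0.00232), Errfi1 (−0.68, 0.0360) and Zbtb16 (0.75, 0.00586). Beside Hsd11b1, the calls of Tsc22d3 (−0.45, limma adjusted p 0.0950), Sgk1 (−0.37, 0.120) and Glul (0.20, 0.275) did not hold there. The combination count was 2 without combination replicate 2, a fit whose share of all genes was not counted. Treated and vehicle libraries did not overlap in 2, 4, 4 and 8 of the 9 genes in the order of the treatments, against 5.83%, 15.4%, 21% and 45.6% of all genes. The median log2 fold change of the 9 genes was 0.00, 0.07, −0.02 and −0.26, where those of all genes lay between −0.01 and 0.00.

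In DFAT cells 2 of the 9 genes were called with dicoumarol and 1 with magnolol, while the combination had 4 calls and rosiglitazone 2, all lower. The shares of all genes called were 1.94%, 4.22%, 10.2% and 10.8%, and those called lower were 1.03%, 1.27%, 4.06% and 5.02%. The combination count was 2 without combination replicate 1, and the magnolol count was 2 without vehicle replicate 2. The shares of all genes called in these fits were not counted. Treated and vehicle libraries did not overlap in 5, 5, 5 and 4 of the 9 genes, against 19.3%, 21.9%, 28.9% and 21.4% of all genes. The median log2 fold changes of the 9 genes were −0.02, −0.13, −0.20 and −0.12, and with magnolol and the combination 8 of the 9 lay below 0. The medians of all genes lay between −0.01 and 0.00. All 4 comparisons share the same 3 vehicle libraries.

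Whether the combination differed from each compound alone was asked next. In 3T3-L1 cells limma called 0 of the 9 genes against dicoumarol (3 at an unadjusted p under 0.05) and 0 against magnolol (0 at an unadjusted p under 0.05). All genes gave 0.0254% and 0%, with 336 genes at an unadjusted p under 0.05 against magnolol. The replicate block called 2 against dicoumarol, Hsd11b1 (log2 fold change 0.91, limma adjusted p 0.00524) and Anxa1, and 0 against magnolol, and 3.62% and 0% of all genes. In DFAT cells 0 of 9 were called against dicoumarol (3 at an unadjusted p under 0.05; 2.35% of all genes). Against magnolol 1 of 9 was called, ERRFI1, against 0.621% of all genes, and with the replicate block, which pairs these 2 groups, SGK1 was called too (1.96% of all genes). The ERRFI1 count was 0 without magnolol replicate 1, magnolol replicate 3 or combination replicate 3, fits whose shares of all genes were not counted. The departure of the combination from the 2 single log2 effects added together was called for 0 of the 9 genes in either system by limma (0 at an unadjusted p under 0.05 in each). The shares of all genes were 0% in 3T3-L1 cells, with 78 at an unadjusted p under 0.05, and 0.081% in DFAT cells. Without the replicate block, the 95% interval of this departure was −0.90 to 1.197 for Hsd11b1 in 3T3-L1 cells and −0.03 to 0.56 for SGK1 in DFAT cells.

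Rosiglitazone against the combination was compared after the values had been seen. In 3T3-L1 cells 1 of 9 genes was called, Errfi1, against 18.3% of all genes. Leaving out rosiglitazone replicate 2, the library with the lowest Hsd11b1 value of its group, gave 3 calls, with Hsd11b1 (1.35, limma adjusted p 0.0104) and Fkbp5 added. The share of all genes called in that fit was not counted. The replicate block gave 5, with Hsd11b1 (0.98, 0.000412), Fkbp5, Nr3c1 (−0.24, 0.0346) and Tsc22d3 (−0.27, 0.0167) beside Errfi1, against 33.3% of all genes with the block. Without rosiglitazone replicates 1 and 3 no call was made among the 9 genes (Errfi1 −0.63, limma adjusted p 0.202), against 0.267% of all genes. In DFAT cells 3 of 9 were called, ERRFI1 and NR3C1 higher and GLUL lower, against 17% of all genes. With the block, which pairs these groups and called 24.9% of all genes, SGK1 was called as well (0.28, limma adjusted p 0.000252), and it was called without rosiglitazone replicate 3 (0.0349).

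The 3T3-L1 libraries carried a second pattern, by replicate number. In 7 of the 9 genes the same number was the lowest library in all 5 groups, against 12.9% of the 15723 genes tested. Replicate 1 was lowest for Nr3c1, Fkbp5, Tsc22d3, Errfi1 and Anxa1 (4.29% of genes), replicate 2 for Hsd11b1 and replicate 3 for Sgk1. For 3 genes the same number was highest in all groups, replicate 1 for Sgk1, replicate 2 for Fkbp5 and replicate 3 for Glul, against 14.7% of genes. In DFAT cells SGK1 alone of the 9 had one number lowest (replicate 3) and one highest (replicate 2) in all groups, against 10.3% and 8.35% of genes. What a number stands for is not given, and a shared culture, day or preparation was not tested.

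**Figure D4:**
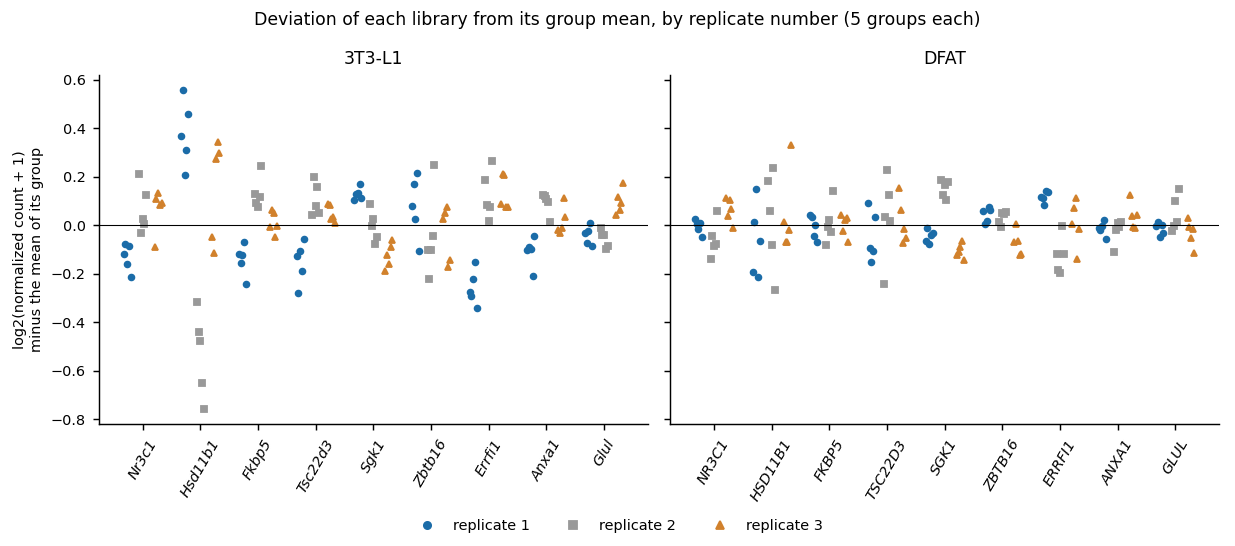
Deviation of each library from the mean of its group, as log2(normalized count + 1), for the 9 tested genes in 3T3-L1 (left) and DFAT cells (right), with 1 point per library and the replicate number as symbol and colour. In 3T3-L1 cells replicate 1 lies below 0 in all 5 groups for Nr3c1, Fkbp5, Tsc22d3, Errfi1 and Anxa1, and replicate 2 for Hsd11b1.

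Other genes of the pathway were taken from a pair of lists. Receptor handling genes are chaperones, coregulators and enzymes that act on the receptor or its hormone (16 genes, 15 tested in each system). In 3T3-L1 cells 0 were called with dicoumarol, and Ncoa1, a coactivator, was called higher with magnolol (log2 fold change 0.45) and the combination (0.39), 1 of 15 each, against 1.07% and 3.86% of all genes called higher. With rosiglitazone 7 rose and 3 fell, against 20.3% and 19.9% of all genes. The mineralocorticoid receptor Nr3c2 fell by 0.66, and the chaperone proteins Stip1 and Ptges3 rose by 0.59 and 0.58. Ncoa1 rose by 0.55. The list median with rosiglitazone was 0.30, against 0.00 for all genes. In DFAT cells 0 receptor handling genes were called with dicoumarol and 1 with magnolol (FKBP4, −0.24). The combination lowered 2, HSP90AB1 (−0.21) and HSPA8 (−0.20), and with rosiglitazone POR rose by 0.39 and HSPA8 fell by 0.27. In the order of the treatments 0, 1, 2 and 1 of 15 were called lower, against 1.03%, 1.27%, 4.06% and 5.02% of all genes, and 0, 0, 0 and 1 higher, against 0.911%, 2.96%, 6.11% and 5.8%. Their medians were −0.05, −0.12, −0.08 and 0.02, beside −0.01 to 0.00 for all genes.

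Other glucocorticoid-responsive genes moved in both directions (36 listed, 34 tested in 3T3-L1 and 31 in DFAT cells). In 3T3-L1 cells 0 were called with dicoumarol. With magnolol 4 were higher and 0 lower, Angptl4 (0.98), a secreted inhibitor of lipoprotein lipase, Lpin1 (0.85), an enzyme of triglyceride synthesis, Agt (0.70), the angiotensin precursor, and Fam107a (0.49). Of all genes 1.07% were called higher and 0.153% lower. With the combination 6 were higher and 1 lower, with Angptl4 (1.47), Lpin1 (0.99) and Agt (0.92) among the higher, against 3.86% and 1.36% of all genes. With rosiglitazone 13 were higher and 11 lower, against 20.3% and 19.9% of all genes. Among them were Angptl4 (2.78), Klf15 (2.75, at a mean normalized count of only 23.3) and Lox (−1.84). Several of these, Angptl4 and Lpin1 among them, are also known genes of fat cells, so the list is not a measure of the receptor alone. The list medians were 0.05, −0.01, −0.01 and −0.18, beside −0.01 to 0.00 for all genes.

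In DFAT cells the second list gave 0 higher and 1 lower with dicoumarol (IL1R1, −0.32). With magnolol 1 was higher and 3 lower, and the 3 were IL1R1 (−0.40), CEBPD (−0.30) and IRS2 (−0.24). The combination gave 5 higher and 5 lower, with PDK4 (1.502), MERTK (1.18), LCN2 (0.77) and IL1R1 (−0.59) the largest. Rosiglitazone gave 11 higher and 9 lower, with PDK4 (2.09), ANGPTL4 (1.91), MERTK (1.19) and AGT (−0.90). IL1R1, the interleukin receptor, was called lower with dicoumarol, magnolol and the combination. PDK4 and MERTK had mean normalized counts of only 32.9 and 20.5. Among all DFAT genes 0.911%, 2.96%, 6.11% and 5.8% were called higher in the order of the treatments, and the shares called lower are given above. The medians were 0.04, −0.02, 0.03 and 0.10, beside −0.01 to 0.00 for all genes.

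The genes whose levels ran most closely with the receptor gene over the 15 libraries of a system were listed as a description. In 3T3-L1 cells they were Atrnl1 (Pearson r 0.97), Nrp1, Tcf12, Manea and Osbpl8 (0.97 to 0.96), among 11577 genes with a symbol and a mean of at least 100. In DFAT cells they were PGM2 (0.96), SUZ12, METAP1, CSNK1G3 and TSC22D2 (0.94 to 0.93), among 9932. For Fkbp5 the closest included Atg14 (0.92), Pi4kb, Ldlrad3, Gse1 and Zhx2 in 3T3-L1 cells and MRPS33 (0.88), GATA6, CREB3L2 and ERCC4 in DFAT cells. No gene was among the 5 in both systems. The 15 points share groups, replicate numbers and size factors, so these values describe the libraries.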

How the data were processed

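The deposited values are signal values, gene counts that the authors divided by DESeq2 size factors, in 1 table per species, per the labels' descriptions. The submitters' processing notes name bcl2fastq 2.19.1.403, STAR, DESeq2 and the build GRCm38, without roles, and name that build for the pig samples too. Of 24070 mouse genes matched to GENCODE M21 on GRCm38, 95.5% had the same length but 2.18% the same start, so positions are given as deposited, with the end as the listed stop less 1. The counter, its annotation and its use of strand were not given in the sources used here. Poly(A) RNA went into strand-marked libraries, per the labels' protocols. Most low values were whole reads, but not all (81.7% to 82.7% in 3T3-L1 libraries and 89.7% to 91.0% in DFAT libraries, within 0.02 of a read). Counts were therefore not rebuilt, and no count test was run.

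Genes with a mean of at least 10 entered a limma fit (version 3.58.1, R 4.3.3) on log2(value + 1), all 5 groups in 1 model per table, with a variance trend, two-sided moderated tests and Benjamini-Hochberg adjustment over all genes tested. Log2 fold changes had a median SE of 0.146 (3T3-L1) and 0.0992 (DFAT). The fit was tested on simulated data with 200 genes changed between magnolol and vehicle. Low genes were not among those changed, all other genes were left unchanged, and the simulated noise held no effect of the replicate number. It recovered 47.8% of 1.5-fold and 91.0% of 2-fold changes in 3T3-L1 cells. In DFAT cells it recovered 85.1% and 97.0%. Changes of 1.5-fold were thus often missed in the simulated 3T3-L1 data. Recovery of low genes and in the other comparisons was not simulated. The members and lists were chosen with earlier results of these data known. All 10 members are named. From the lists of 16 receptor handling and 36 other glucocorticoid-responsive genes, up to 4 called genes with the largest log2 fold change per comparison with vehicle are named. Likeness to Nr3c1 and Fkbp5 was ranked by Pearson r among genes with a symbol and a mean of at least 100. Marker lists covered adipocytes (10 genes), preadipocytes or fibroblasts (8), macrophages (5), endothelium (4) and skeletal muscle (4). Promoter sequences are from RefSeq (GRCm38.p6). Some genes that the naming rules select are not reported here.

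Libraries carry the numbers 1 to 3 in each group, and the labels do not say what these stand for. In 3T3-L1 cells same-numbered libraries of any 2 groups deviated together from their group means (30 pairs, lowest correlation 0.106). There the numbers were taken as pairs, and the value with a replicate block is printed beside any call that it changes. In DFAT cells this held between the magnolol, combination and rosiglitazone groups (3 of 10 pairs of groups). The alternatives were pseudocounts of 0.5 and 5, no filter or a minimum mean of 50, no variance trend, quantile normalization, the compared groups only, the replicate block, leaving out each library and, added after the values were seen, leaving out 3T3-L1 rosiglitazone replicates 1 and 3. Tables and plots used Python 3.11.15, pandas 2.3.3, numpy 2.4.6 and matplotlib 3.10.9.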

Additional observations from a re-analysis of the deposited data

Results flagged for a closer look

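For 5 of the genes, every treated 3T3-L1 library lay on one side of its vehicle mean and every DFAT library under the same treatment on the other side. How many of all genes meet this rule was not counted, so these cases are a description only. The difference between the systems was not tested in any of these cases. Hsd11b1 stood out, with log2 fold changes of 0.76 in 3T3-L1 and −0.38 in DFAT cells with magnolol, 1.04 and −0.85 with the combination, and 2.02 and −0.95 with rosiglitazone. With rosiglitazone the values were −0.26 and 0.16 for Nr3c1, 0.50 and −0.11 for Zbtb16, and 0.28 and −0.21 for Glul. With the combination they were 0.16 (SE 0.12) and −0.047 (SE 0.07) for Fkbp5, whose libraries overlapped with vehicle in both systems. Of these 14 values, 5 were called in their own system: Hsd11b1 with rosiglitazone in both and with the combination in DFAT cells, and Zbtb16 and Glul with rosiglitazone in 3T3-L1 cells. The media also differed between the systems, in dexamethasone, IBMX and serum. Insulin is named for 3T3-L1 cells only, and biotin and pantothenate for DFAT cells only. These differences cannot be told apart from the species.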

How the results depend on the processing

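No value changed direction where it was called, under any alternative run, and the 2 other pseudocounts changed no call. Shares of all genes called were counted only for fits with the block or without rosiglitazone replicates 1 and 3. For the other alternatives a changed count below cannot be told from a change over all genes. With the replicate block the number of the 9 genes called was 3 for magnolol and 5 for the combination against vehicle in 3T3-L1 cells, 2 for the combination against dicoumarol and 5 for rosiglitazone against the combination. In DFAT cells it was 3 for magnolol (9.18% of all genes), 4 for rosiglitazone (16%), 1 for the combination against dicoumarol (SGK1; 6.03%) and 2 for the combination against magnolol. In the DFAT comparisons of magnolol and rosiglitazone with vehicle, and of the combination with dicoumarol, same-numbered libraries were not clearly paired. Their lowest same-number correlations were 0.0047, −0.306 and −0.0219. Every library correlated best with its own number in 5 of the 10 pairs of groups, dicoumarol with vehicle and with magnolol among them. The block changed no other count by over 1.5 times and lost no call. Quantile normalization gave 2 for the combination in 3T3-L1 cells and 2 for magnolol in DFAT cells. For the combination against magnolol in DFAT cells the count was 0 under 3 settings, without a filter, without a variance trend or when the 2 groups were fitted alone. The last setting gave 1 for rosiglitazone against the combination. Leaving out 1 library in turn gave 1 to 2 for the 3T3-L1 combination, 5 to 7 for 3T3-L1 rosiglitazone and 1 to 3 for 3T3-L1 rosiglitazone against the combination. It gave 1 to 2 for DFAT magnolol, 2 to 5 for the DFAT combination, 2 to 3 for DFAT rosiglitazone, 0 to 1 for the DFAT combination against magnolol and 2 to 3 for DFAT rosiglitazone against the combination. Without rosiglitazone replicates 1 and 3, the 3T3-L1 libraries with a high mitochondrial share, it was 3 for rosiglitazone and 0 for rosiglitazone against the combination. The cause was not tested, and these fits also hold fewer libraries, which cannot be told apart from the mitochondrial share. HSD11B1, TSC22D3 and CDKN1C in DFAT cells and Hsd11b1 and Cdkn1c in 3T3-L1 cells rest on low values, which limits their precision.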
